A study of Mus musculus with 11 samples.

Results

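The 57 genes described here are mouse genes whose symbol is Gpr followed by a number, the name given to genes cloned as G protein-coupled receptors before a ligand was known. The rule that picks them uses only the symbol. Entrez identifiers were matched to RefSeq symbols, protein-coding genes with such a symbol were kept, and Gpr34, Gpr35 and Gpr84 were left out by the rule. Of the 71 genes that fit the rule in RefSeq, 57 were among the 16894 genes of the deposited table and 14 are not analysed here. RNA was sequenced from mouse brain microglia in 11 libraries, all labelled with the Cx3cr1-GFP genotype, a green fluorescent reporter in microglia and related cells. Cultured primary microglia gave 3 of these libraries, resident microglia gave 4 and transplanted microglia gave 4. Resident and transplanted cells were purified by flow cytometric sorting, and transplanted cells were taken 3 months after transplantation. The comparisons ask how far transplanted cells resemble resident cells, with the cultured cells as the other reference. Per the labels' protocols, microglia of host mice were depleted with chow containing 600 mg/kg PLX3397, an inhibitor of the growth factor receptor Csf1r, in 3 cycles. The labels attach that protocol to all 11 libraries, and leave unsaid whether resident or cultured cells came from treated mice and where the transplanted cells came from. Nothing in the labels ties replicates to separate cultures or animals. The p-values therefore measure only how these samples spread, which may be technical.

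G protein-coupled receptors are multi-pass membrane proteins that pass signals from protons, lipids, peptides and other ligands to heterotrimeric G proteins. The exchange of nucleotide on the alpha subunit frees the beta-gamma dimer, G protein-coupled receptor kinases and arrestins switch receptors off, and RGS proteins speed the return of the alpha subunit to its resting state. Microglia use such receptors to sense tissue damage, acid and lipid mediators. The name orphan fits only some of the 57 genes. Gpr183 has an oxysterol ligand, Gpr4, Gpr65 and Gpr132 belong to a family that responds to extracellular protons, and proteins such as those of Gpr107, Gpr108, Gpr137b, Gpr155 and Gpr89 sit mainly in Golgi or lysosomal membranes and are not known as classical receptors.

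Cultured libraries were the deepest, at 26705034 to 28219696 expected counts in total, while resident ones held 19055655 to 19965631 and transplanted ones 18692721 to 19761208. Levels are given in CPM, counts scaled to a common library total with TMM over all 11 libraries, and 3 counts in a library are 0.136 to 0.146 CPM. The microglial identity of the groups was checked on 8 marker genes, whose summed level was 47700 to 53000 CPM in resident, 41200 to 50600 CPM in transplanted and 3410 to 5830 CPM in cultured libraries. All 8 were called lower in cultured than in resident cells, and 2 (Sall1 and Siglech) were called lower in transplanted than in resident cells. Cultured replicate 2 and resident replicate 1 stood apart from their group mates. Their chi-square per gene against a group mate was 112 to 115 and 43.3 to 47.3, while it was 24 between the other cultured libraries and 8.16 to 8.88 among the other resident libraries. Among transplanted libraries this value was 16.5 to 39.5, and it was highest for replicate 2 against replicates 3 and 4 (39.5 and 38.6).

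A group mean of at least 5 TPM was reached by 13 members. TPM is a unit scaled for gene length that allows genes to be compared with each other. In TPM, the highest members in resident cells were Gpr183 (224 ± 18.5, SD, n = 4), Gpr155 (199 ± 14.3), Gpr137b (178 ± 9.81) and Gpr108 (131 ± 4.93). In TPM levels of resident libraries, the ranges of Gpr183 and Gpr155 overlapped, as did those of Gpr155 and Gpr137b, and Gpr108 lay below all of these. Gpr146 (90.6 ± 11.3 TPM), Gpr160 (73.9 ± 4.37), Gpr107 (66.2 ± 1.97), Gpr137 (63.4 ± 3.36) and Gpr165 (50.2 ± 2.02) followed in resident cells. Gpr65 was the lowest of the 13 there, at 7.39 ± 0.621 TPM. Transplanted cells had the same 4 members at the top in TPM, with Gpr183 at 251 ± 28.5 and Gpr155 at 168 ± 28.3 (n = 4). Gpr65 stood at 45.5 ± 12.9 TPM in transplanted cells, overlapping Gpr180 and Gpr89, and Gpr165 was the lowest of the 13 at 12.2 ± 4.42 TPM. In cultured cells Gpr137b (125 ± 41.1 TPM, n = 3) and Gpr108 (63.7 ± 7.19 TPM) led, and Gpr183 was at 15.9 ± 3.22 TPM and Gpr155 at 4.25 ± 2.23 TPM. The summed TPM of the 57 members was 369 ± 85.7 in cultured, 1200 ± 38.7 in resident and 1280 ± 71 in transplanted libraries. The median TPM of all genes was also lower in cultured cells, at 3.2 against 7.36 in resident and 7.77 in transplanted cells, so differences between cultured and other cells are given from counts scaled with TMM. On log2(TPM + 0.1) the median log2 fold change of all genes was -1.08 in cultured against resident cells and 1.11 in transplanted against cultured cells, and 0.03 in transplanted against resident cells.

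**Figure D1:**
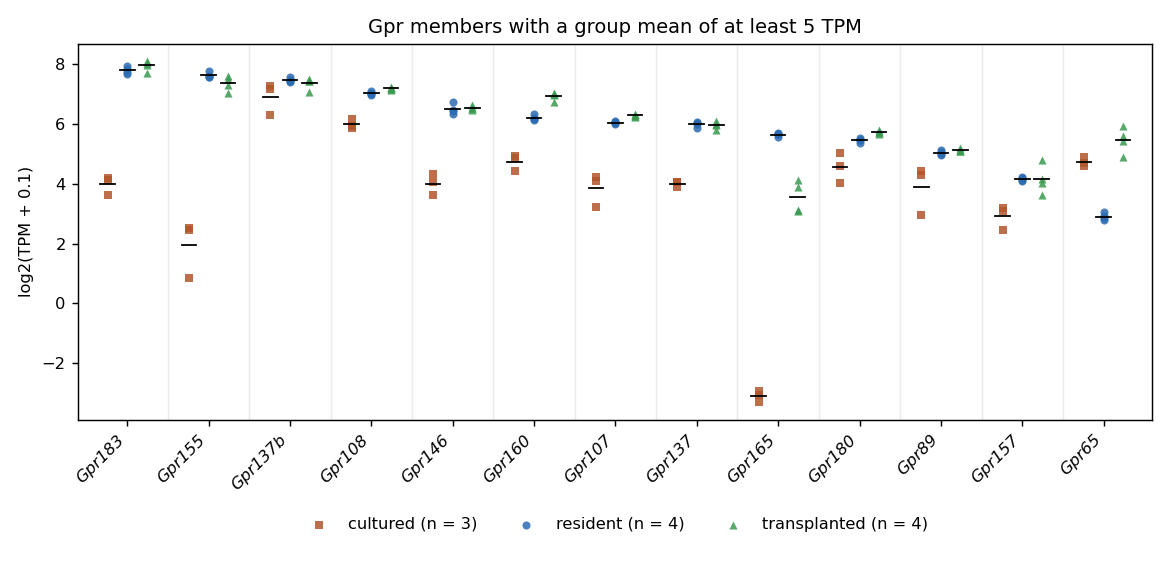
Level of the 13 members with a group mean of at least 5 TPM, as log2(TPM + 0.1) on the vertical axis, with a point per library (squares cultured, circles resident, triangles transplanted) and a bar at the group mean. Gpr183, Gpr155 and Gpr165 lie far lower in the 3 cultured libraries than in the others, and Gpr65 lies lower in the 4 resident libraries than in the other 7.

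Gpr65, Gpr165, Gpr183 and Gpr155 had the largest fold changes of the 13 between cultured and resident cells, so the 250 bases before a start of each are shown, from RefSeq on GRCm38.p6. This choice of 4 was made after their values were seen. The windows are chrX:96713218-96713467 for Gpr165 and chr12:98268385-98268634 for Gpr65 (both plus strand), and chr14:121965194-121965443 for Gpr183 and chr2:73386481-73386730 for Gpr155 (both minus strand). The Gpr155 window precedes an annotated start that lies inside the span of the gene. Capitals mark matches to GGAAGT, the core of ETS factor sites, or GAGGAA, the core bound by the microglial ETS factor PU.1, on either strand.
Gpr165: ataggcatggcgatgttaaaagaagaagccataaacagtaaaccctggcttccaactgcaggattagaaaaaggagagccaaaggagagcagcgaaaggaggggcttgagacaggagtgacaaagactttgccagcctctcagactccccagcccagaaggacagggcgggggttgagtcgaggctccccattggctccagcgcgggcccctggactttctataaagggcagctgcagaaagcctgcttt
Gpr65: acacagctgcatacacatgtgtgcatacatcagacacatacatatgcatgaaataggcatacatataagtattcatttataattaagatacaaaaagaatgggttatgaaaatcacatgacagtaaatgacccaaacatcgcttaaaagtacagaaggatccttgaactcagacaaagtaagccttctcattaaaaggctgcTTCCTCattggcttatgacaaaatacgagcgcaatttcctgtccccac
Gpr183: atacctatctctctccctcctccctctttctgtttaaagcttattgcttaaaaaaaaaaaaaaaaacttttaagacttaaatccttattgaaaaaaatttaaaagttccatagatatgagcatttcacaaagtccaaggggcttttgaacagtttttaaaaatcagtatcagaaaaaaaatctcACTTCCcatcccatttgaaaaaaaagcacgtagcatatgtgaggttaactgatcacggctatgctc
Gpr155: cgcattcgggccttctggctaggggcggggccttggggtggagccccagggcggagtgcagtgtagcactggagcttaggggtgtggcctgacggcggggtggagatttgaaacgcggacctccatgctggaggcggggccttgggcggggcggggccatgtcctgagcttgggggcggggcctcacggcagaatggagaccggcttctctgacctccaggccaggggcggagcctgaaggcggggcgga
The Gpr65 window held TTCCTC, the reverse complement of GAGGAA, 48 bases before the start, and the Gpr183 window held ACTTCC, the reverse complement of GGAAGT, 66 bases before the start. The Gpr165 and Gpr155 windows held neither set of letters. The Gpr165 window held the TATA letters TATAAA 30 bases before the start, and the Gpr65 window held their reverse complement, TTTATA, 175 bases before the start. The G and C content was 70.4% in the Gpr155 window and 54.4%, 36.8% and 32% in those of Gpr165, Gpr65 and Gpr183. Among all 32851 windows of the same length, 23.3% held GAGGAA, 19.7% held GGAAGT and 12.4% held TATAAA on either strand. Among the 54 windows of the 41 members in the RefSeq table, 11 held GAGGAA, 11 held GGAAGT and 6 held TATAAA. The ETS and PU.1 letters overlap within GAGGAAGT, which 4 of the 54 member windows held (Gpr137, Gpr137c, Gpr31b and Gpr55). Of all 32851 windows 802 held it (2.44%). It was among several sets of letters searched, and the difference was not tested.

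Cultured cells differed from resident cells in most members tested. Each pair of groups was tested with edgeR's quasi-likelihood test, with p-values adjusted by Benjamini-Hochberg over every gene in the fit and a threshold of 0.05 for a call. Each adjusted p below is from that test unless another is named. Between cultured and resident cells 31 of the 57 members passed the filter on low counts, of which 9 were called higher and 14 lower in cultured cells. That is 74.2% of the members tested, against 75.1% of all genes tested. By direction, 37.9% of all genes were called higher and 37.2% lower. The median log2 fold change of the members tested was -0.48, against -0.02 over all genes. Without cultured replicate 2 the members called were 10 higher and 14 lower, and without resident replicate 1 they were 9 and 13. Between transplanted and cultured cells 32 members were tested, of which 16 were called higher and 8 lower in transplanted cells. That is 75% of those tested against 72.4% of all genes (36.9% higher and 35.5% lower). The median log2 fold change of the members was 1.05 against 0.05 over all genes, and without cultured replicate 2 the calls were 15 higher and 8 lower. After the filter, the share of members called was close to the share of all genes called in both comparisons. Without it, cultured against resident cells had 9 of 55 members called higher and 15 lower, against 4794 and 4951 of 16492 genes. Transplanted against cultured cells then had 20 of 54 members called higher and 8 lower, against 4760 and 4602 of 16399 genes.

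Between transplanted and resident cells few members differed. Of 25 members tested, 4 were called higher in transplanted cells (Gpr65, Gpr160, Gpr107 and Gpr180) and 1 lower (Gpr165). That is 20% of those tested against 13% of all genes (7.17% higher and 5.86% lower). Gpr65 differed by 6.01-fold, Gpr165 by 4.14-fold and Gpr160 by 1.65-fold, and these 3 were called under all 9 alternative settings and in all 8 fits with a library left out. Gpr107 and Gpr180 differed by 1.16-fold and 1.2-fold and lost their call under several of these. Leaving out any 1 of the 4 resident libraries left 2 members called higher in place of 4. The median log2 fold change of the members tested was 0.11, against 0.02 over all genes.

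**Figure D2:**
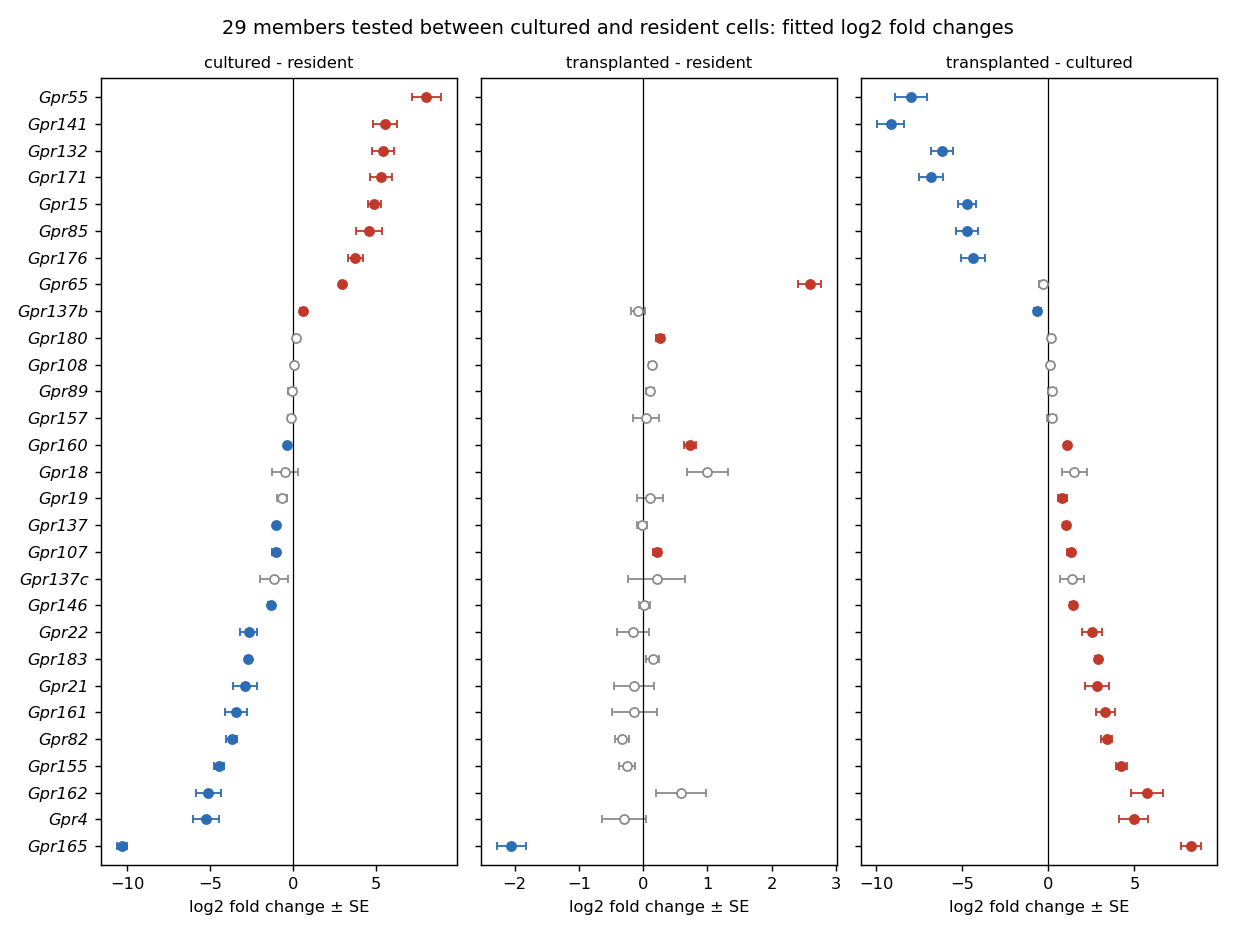
Fitted log2 fold changes ± SE of 29 of the 31 members tested between cultured and resident cells, in the 3 comparisons (horizontal axes, each with its own range), with filled points where the gene was called (red higher, blue lower in the group named first), open points where it was not, and no point where it was not tested. The middle panel has 5 filled points, with Gpr65 and Gpr165 farthest from 0.

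**Figure D3:**
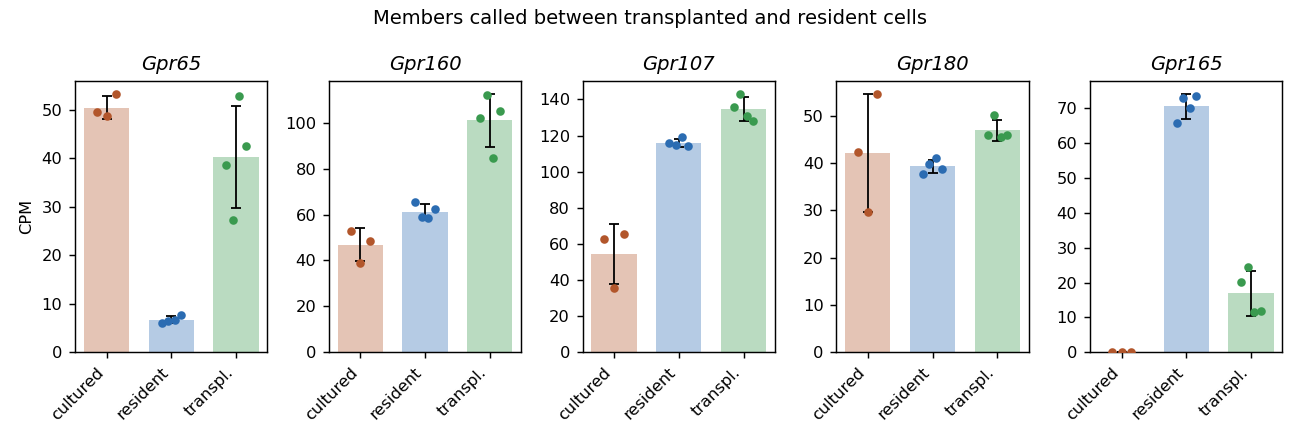
Level in CPM of the 5 members called between transplanted and resident cells, with bars at the group mean, whiskers of 1 SD and a point per library (n = 3 cultured, 4 resident, 4 transplanted). Resident and transplanted libraries do not overlap in any of the 5 panels, but the 5 were chosen by their call between these groups. The fold change between them is largest for Gpr65 and Gpr165.

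Gpr65 encodes a proton-sensing receptor coupled to cyclic AMP production, found mostly on leukocytes (Entrez 14744, chr12:98268635-98276722). Its level was 49.5, 48.7 and 53.3 CPM in the cultured libraries. It was 6.11, 6.4, 6.7 and 7.68 CPM in the resident libraries, and 38.6, 27.2, 52.9 and 42.5 CPM in the transplanted libraries. Each resident library was thus below all others, and the ranges of cultured and transplanted libraries overlapped. Gpr65 was higher in transplanted than in resident cells by 2.59 ± 0.18 on the log2 scale (SE, adjusted p = 1.68e-05) and higher in cultured than in resident cells by 2.95 ± 0.12 (7.71-fold, adjusted p = 6.73e-08). Between transplanted and cultured cells the log2 fold change was -0.34 ± 0.2 (adjusted p = 0.146). That last direction depended on scaling, since on log2(TPM + 0.1) with limma it was 0.73 (adjusted p = 0.0123), or -0.44 (adjusted p = 0.065) after centring each library on its median, and without transplanted replicate 3 the count fit gave -0.5 (adjusted p = 0.0378). Antisense gene Gm47566 shares 24.7% of the exon bases of Gpr65, and the labels do not give the strand of the libraries, so its reads cannot be told apart from those of Gpr65 there.

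The proton-sensing receptors Gpr132 and Gpr4 were much lower. Gpr132, which also responds to oxidised fatty acids, was at 1.86, 2.42 and 2.1 CPM in cultured libraries, and had 4 counts over the 4 resident and 2 over the 4 transplanted libraries. Its log2 fold change in cultured against resident cells was 5.39 ± 0.66 (adjusted p = 6.2e-05), and 6.65 without resident replicate 4. Against the 2 transplanted counts, its level was higher in cultured cells by a ratio of 90.2 (95% interval 24.5 to 753 from counting error only). Gpr4, best known from endothelium, was instead at 1.46 ± 0.44 CPM in resident and 1.18 ± 0.484 CPM in transplanted cells, with 2 counts over the 3 cultured libraries. The ratio of resident to cultured level was 45.7 (12.4 to 381) and of transplanted to cultured level 36.9 (9.97 to 309), and Gpr4 was called in both comparisons. The summed level of 6 endothelial markers was 47.8 to 64.6 CPM in resident, 27.3 to 32.2 CPM in transplanted and 9.97 to 10.3 CPM in cultured libraries, most of it in resident cells from Pecam1 (47.3 CPM), while Cldn5 and Tek were near 0 in every group. Of the 4 markers tested, Pecam1, Kdr and Cdh5 were called lower and Flt1 higher in cultured than in resident cells. In transplanted against resident cells, where Gpr4 was not called, Flt1, Kdr and Cdh5 were called higher and Pecam1 lower. The part of these markers in the Gpr4 difference was not tested. In such bulk libraries, fewer cells of a type and less RNA per cell cannot be told apart.

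Among members with a known or proposed lipid ligand, Gpr183 was the most abundant member of all in resident and transplanted cells by TPM. It encodes the oxysterol receptor that guides B cells and other leukocytes (Entrez 321019, chr14:121952331-121965193). Its level was 49, 34.7 and 44.2 CPM in cultured libraries. It was 257, 296, 313 and 284 CPM in resident and 334, 360, 260 and 315 CPM in transplanted libraries. All cultured libraries lay below all others, and resident and transplanted libraries overlapped. Gpr183 was lower in cultured than in resident cells by 6.58-fold (log2 fold change -2.72 ± 0.15, adjusted p = 3.4e-07) and higher in transplanted than in cultured cells by 7.38-fold (2.88 ± 0.17, adjusted p = 3.72e-07). Between transplanted and resident cells it differed by 0.15 ± 0.1 on the log2 scale (adjusted p = 0.397). Gpr183 lies inside Ubac2 on the opposite strand, which moved the same way by less. Ubac2 was called lower in cultured than in resident cells (-0.44) and higher in transplanted than in cultured cells (0.63). B-cell markers were also lower in cultured than in resident libraries, but they were lowest in transplanted ones. Their summed level was 17.9 to 26.8 CPM in resident, 0.581 to 0.817 CPM in transplanted and 1.31 to 2.24 CPM in cultured libraries, and most of it in resident cells was Cd79b at 23.1 CPM. The part of these markers in the Gpr183 difference was not tested.

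Gpr55, which responds to lysophosphatidylinositol, was at 1.57, 0.92 and 2 CPM in cultured libraries and had no count in any resident or transplanted library. Its level in cultured cells was at least 43.1-fold higher than in resident cells and at least 42.4-fold higher than in transplanted cells, against 3 counts over the group. Gpr18, for which an endocannabinoid-like ligand was proposed, was at 0.371 ± 0.366 CPM in cultured, 0.532 ± 0.184 in resident and 1.07 ± 0.238 in transplanted cells. It was called in none of the comparisons; in transplanted against resident cells its log2 fold change was 1.0 ± 0.32 (adjusted p = 0.0703), and 1.14 without transplanted replicate 2 (adjusted p = 0.0483). In transplanted against cultured cells it was 1.5 ± 0.74 (adjusted p = 0.0923), and 2.43 without cultured replicate 3 (adjusted p = 0.0315). Gpr174, a lysophosphatidylserine receptor of lymphocytes, had 2 counts in cultured and 2 in transplanted libraries and was not tested.

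The genes of enzymes and proteins tied to these ligands were taken as a list of 8. Ch25h, which encodes the enzyme that starts the synthesis of the Gpr183 ligand, was at 58.5 ± 2.25 CPM in cultured, 0.581 ± 0.273 in resident and 3.55 ± 1.84 in transplanted cells. It was called higher in cultured (log2 fold change 6.68, adjusted p = 4.41e-08) and in transplanted cells (2.61, adjusted p = 0.00309) than in resident cells. Hsd3b7, an enzyme that breaks that ligand down, was at 67.1 ± 4.5 CPM in resident and 83.8 ± 6.58 in transplanted cells (0.32, adjusted p = 0.0162). That call was lost without resident replicate 1, 2 or 3 or transplanted replicate 3 (adjusted p 0.05 to 0.0709). It was also lost with all groups in 1 fit (adjusted p = 0.236). Cyp7b1, which completes the ligand, and Pla1a, a phospholipase that makes lysophosphatidylserine, were not tested, with group means of at most 0.0117 and 0.645 CPM. In cultured against resident cells 3 of the 6 genes tested were called higher (Ch25h, Ddhd1 and Psap) and 1 lower (Abhd12), which is 66.7% against 75.1% of all genes. Ddhd1, a phospholipase that can supply the Gpr55 ligand, rose by 3.66 on the log2 scale, and Psap, whose product prosaposin is a proposed peptide ligand of Gpr37, rose by 1.87. Abhd12, which degrades lysophosphatidylserine, fell by 1.01. Abhd16a, which makes that lipid, had a log2 fold change of -0.29 (adjusted p = 0.0755). Transplanted against resident cells had 2 of 6 genes called, both higher (Ch25h and Hsd3b7), which is 33.3% against 13% of all genes.

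The 8 members of Golgi, lysosomal or otherwise non-classical proteins were all tested in each comparison. In cultured against resident cells 1 was called higher and 3 lower, which is 50% of them against 75.1% of all genes. In transplanted against resident cells 2 were called higher, which is 25% against 13% of all genes. Gpr155 encodes a lysosomal membrane protein that senses cholesterol (Entrez 68526, chr2:73341506-73386521). Its level was 19.9, 8.23 and 18.5 CPM in cultured libraries. It was 331, 385, 346 and 349 CPM in resident and 284, 337, 227 and 338 CPM in transplanted libraries. The cultured libraries lay far below the others, with replicate 2 the lowest, and resident and transplanted libraries overlapped. Gpr155 was lower in cultured than in resident cells by 22.1-fold (log2 fold change -4.47 ± 0.3, adjusted p = 1.36e-06) and higher in transplanted than in cultured cells by 18.9-fold (4.24 ± 0.32, adjusted p = 1.6e-06). In transplanted against resident cells the log2 fold change was -0.25 ± 0.12 (adjusted p = 0.226).

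Gpr137 and Gpr137b encode related lysosomal membrane proteins. Gpr137 was at 23, 20.8 and 20.3 CPM in cultured, 40.6, 44.5, 46.1 and 45.9 CPM in resident and 47.9, 39.3, 41.5 and 44.9 CPM in transplanted libraries. Cultured libraries did not overlap the others, and Gpr137 was lower in cultured than in resident cells by 2.02-fold (log2 fold change -1.02 ± 0.11, adjusted p = 2.18e-05). It shares 15.4% of its exon bases with Bad on the opposite strand, and Bad was called higher in cultured cells (1.32). Gpr137b was at 299, 186 and 287 CPM in cultured, 183, 176, 169 and 176 CPM in resident and 174, 189, 129 and 172 CPM in transplanted libraries. Cultured replicate 2 lay near the resident libraries and the other 2 above them. Gpr137b was called higher in cultured than in resident cells (0.58 ± 0.16, adjusted p = 0.00811) and lower in transplanted than in cultured cells (-0.64 ± 0.19, adjusted p = 0.0107), but both directions reversed on the TPM scale (-0.57 and 0.47) and were 0.54 and -0.7 there after centring. The third gene of the family, Gpr137c, was at 0.373 ± 0.443, 0.853 ± 0.506 and 0.984 ± 0.247 CPM in cultured, resident and transplanted cells and was not called with all libraries. Without cultured replicate 3 it was called lower in cultured cells, with log2 fold changes of -2.76 against resident cells (adjusted p = 0.0252) and 2.96 in transplanted against cultured cells (adjusted p = 0.00429).

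Gpr107 and Gpr108 encode related Golgi proteins that have been tied to membrane traffic and to the entry of toxins and viral vectors. Gpr107 was at 62.6, 35.4 and 65.3 CPM in cultured, 116, 115, 119 and 114 CPM in resident and 136, 143, 131 and 128 CPM in transplanted libraries. The 3 groups did not overlap. It was lower in cultured than in resident cells by 2.08-fold (log2 fold change -1.06 ± 0.19, adjusted p = 0.000863) and higher in transplanted than in resident cells by 1.16-fold (0.22 ± 0.06, adjusted p = 0.0365). The latter call was lost in 7 of 8 fits with a library left out, all but that without transplanted replicate 4, with adjusted p from 0.0384 to 0.112 over the 8. It was also lost with all groups in 1 fit (adjusted p = 0.533). Gpr108 was at 116, 115 and 129 CPM in cultured, 115, 120, 123 and 117 CPM in resident and 129, 131, 130 and 132 CPM in transplanted libraries. It was not called in any comparison, with log2 fold changes of 0.06 ± 0.09 (cultured against resident), 0.14 ± 0.05 (transplanted against resident) and 0.1 ± 0.1 (transplanted against cultured), though on the TPM scale it was called lower in cultured than in resident cells (-1.04, adjusted p = 1.35e-05, and 0.06 after centring).

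Gpr180, a membrane protein first described in vascular smooth muscle, was at 42.3, 29.7 and 54.6 CPM in cultured, 37.8, 39.8, 41 and 38.7 CPM in resident and 46, 50.2, 45.6 and 45.9 CPM in transplanted libraries (Entrez 58245). Transplanted libraries lay above resident ones, and the cultured libraries spread over both. Gpr180 was higher in transplanted than in resident cells by 1.2-fold (log2 fold change 0.26 ± 0.06, adjusted p = 0.0204). That call was lost in 5 of 8 fits with a library left out (each resident library or transplanted replicate 2, adjusted p 0.0354 to 0.0758 over the 8) and with all groups in 1 fit (adjusted p = 0.406). Its fold change in cultured against resident cells, 0.14 ± 0.18 (adjusted p = 0.498), was -0.91 on the TPM scale (adjusted p = 0.00306) and 0.31 without cultured replicate 2 (adjusted p = 0.0248). Gpr89, a Golgi anion channel that regulates pH, was at 37.4, 18.2 and 34.5 CPM in cultured, 31.2, 34.9, 32.9 and 31.2 CPM in resident and 33.8, 35.5, 34.9 and 35.6 CPM in transplanted libraries. It was not called in any comparison of counts, and it shares 24.8% of its exon bases with Pdzk1 on the opposite strand.

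Gpr165 was the member with the largest difference between cultured and resident cells, and the only 1 of the 25 tested that was called lower in transplanted than in resident cells. It encodes a receptor with no established ligand (Entrez 76206, chrX:96713468-96719388). It had 3 counts over the cultured libraries (0.0477, 0 and 0.0975 CPM). Its level was 65.7, 72.8, 70 and 73.5 CPM in resident and 20.2, 24.5, 11.5 and 11.7 CPM in transplanted libraries. The 3 groups did not overlap, and transplanted cells lay between the others. Gpr165 was lower in transplanted than in resident cells by 4.14-fold (log2 fold change -2.05 ± 0.22, adjusted p = 0.000212), with a range of -2.3 to -1.91 over fits with a library left out. The ratio of resident to cultured level was 1460 (95% interval 499 to 7080 from counting error only), and that of transplanted to cultured level was 351 (120 to 1710).

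Gpr160, for which the CART peptide was proposed as a ligand, was at 53, 39 and 48.6 CPM in cultured libraries (Entrez 71862, chr3:30855759-30897194). It was 65.3, 59.1, 58.3 and 62.4 CPM in resident and 102, 112, 84.8 and 105 CPM in transplanted libraries. The 3 groups did not overlap, and transplanted libraries were highest. Gpr160 was higher in transplanted than in resident cells by 1.65-fold (log2 fold change 0.73 ± 0.09, adjusted p = 0.000506) and than in cultured cells by 2.13-fold (1.09 ± 0.15, adjusted p = 9.78e-05). Its difference between cultured and resident cells was small, -0.35 ± 0.12 (adjusted p = 0.0289), and not called without resident replicate 1 (adjusted p = 0.0546) or 4 (adjusted p = 0.0514).

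Gpr146, known for control of cholesterol in liver, was at 78.2, 50.9 and 61.1 CPM in cultured, 194, 160, 164 and 152 CPM in resident and 166, 173, 177 and 161 CPM in transplanted libraries. Cultured libraries lay below all others, and resident and transplanted libraries overlapped. It was lower in cultured than in resident cells by 2.57-fold (log2 fold change -1.36 ± 0.16, adjusted p = 4.89e-05), and its change in transplanted against resident cells was 0.02 ± 0.08 (adjusted p = 0.903). Gpr146 lies inside 3110082I17Rik on the opposite strand, which moved the other way between cultured and resident cells (2.63). Gpr157, tied to primary cilia, was at 40.3, 25.1 and 36.2 CPM in cultured, 39.3, 39, 36.9 and 37.1 CPM in resident and 25.5, 38.5, 33.5 and 58.9 CPM in transplanted libraries. It was not called in any comparison of counts, and transplanted libraries spread on both sides of the resident ones.

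**Figure D4:**
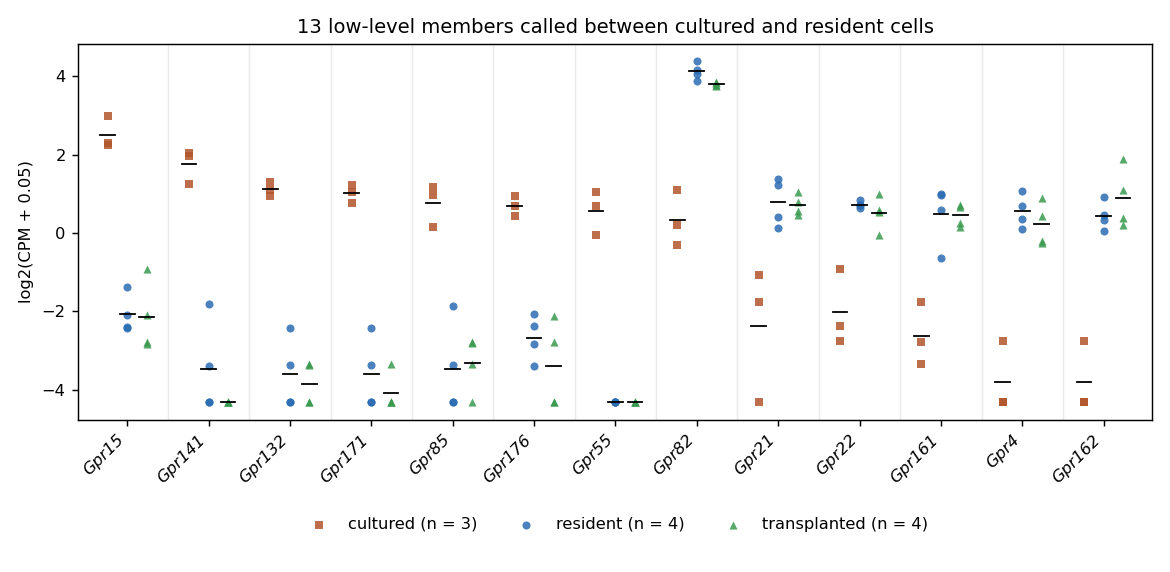
Level of 13 members below 5 TPM in every group that were called between cultured and resident cells, as log2(CPM + 0.05) on the vertical axis, with a point per library and a bar at the group mean. The first 7 are higher in the 3 cultured libraries than in all others, and the other 6 are lower in them, with points at the bottom of the axis for libraries without a count. The 13 were chosen by their call between cultured and resident cells, so this separation follows in part from that choice.

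Of the 44 members below 5 TPM in every group, 18 were tested between cultured and resident cells, of which 7 were called higher and 7 lower in cultured cells. That is 77.8% of those tested, against 75.1% of all genes. A low member can pass the filter only through the group where it is high, which favours a call, so this share says little. Without the filter 7 of 42 were called higher and 8 lower (35.7%), against 4794 higher and 4951 lower of all 16492 genes in that fit. The 7 higher ones (Gpr15, Gpr55, Gpr85, Gpr132, Gpr141, Gpr171 and Gpr176) were at 1.5 to 5.83 CPM on average in cultured cells and at most 0.198 CPM in resident and 0.214 CPM in transplanted cells. Gpr15, a chemoattractant receptor of T cells in the gut, was at 7.92, 4.84 and 4.73 CPM in cultured libraries (log2 fold change against resident cells 4.88 ± 0.39, adjusted p = 3.93e-06). T-cell markers were at most 2.43 CPM in summed level in any library. Of the 2 tested between cultured and resident cells, Cd8a was called higher (log2 fold change 1.73) and Cd4 lower (-3.47) in cultured cells. The part of T cells in the Gpr15 difference was not tested. Gpr141, a receptor with no established ligand, was at 3.87, 2.32 and 4.05 CPM in cultured libraries and without a count in transplanted ones, at least 96.6-fold lower there. Gpr171, a relative of the microglial receptor P2ry12, was at 1.99 ± 0.318 CPM in cultured cells, with 4 counts in resident and 1 in transplanted libraries. Its log2 fold change in cultured against resident cells was 5.3 ± 0.67 (adjusted p = 7.52e-05), and the ratio of cultured to transplanted level was 170 (29.9 to 6750). Gpr171 lies inside Med12l, which moved the other way (-5.81 in cultured against resident cells). Gpr85, a highly conserved brain receptor, was at 1.72 ± 0.587 CPM in cultured cells (4.56 ± 0.78, adjusted p = 0.000541), and Gpr176, known from the circadian clock, was at 1.58 ± 0.278 CPM (3.74 ± 0.46, adjusted p = 6.57e-05). These fits leaned on single libraries with a few counts, with log2 fold changes of 7.34 for Gpr141 without resident replicate 2 (5.54 ± 0.73 with it), 6.34 for Gpr85 without resident replicate 1 and 6.56 for Gpr171 without resident replicate 4.

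Low members that were lower in cultured cells included Gpr4 (above), Gpr21, Gpr22, Gpr82, Gpr161 and Gpr162. Gpr82 was the highest of these, at 1.32 ± 0.691 CPM in cultured, 17.5 ± 2.6 in resident and 13.9 ± 0.427 in transplanted cells. Its log2 fold change was -3.69 ± 0.33 in cultured against resident cells (adjusted p = 7.59e-06). In transplanted against resident cells it was -0.33 ± 0.11 (adjusted p = 0.0835), and -0.42 without resident replicate 3 (adjusted p = 0.0367). Gpr82 lies inside Cask on the opposite strand, whose own change was -1.85 in cultured and -0.97 in transplanted against resident cells, both called. Gpr22 lies inside Cog5 on the opposite strand, and Gpr21 inside Rabgap1 on the same strand and Strbp on the opposite strand. Cog5 (-0.89), Rabgap1 (-0.99) and Strbp (-2.06) were also called lower in cultured than in resident cells. The part of overlapping genes in the member results was not tested. Gpr162 had 2 counts over the cultured libraries, against 1.35 ± 0.368 CPM in resident and 2.02 ± 1.16 CPM in transplanted cells. The ratio of resident to cultured level was 41.7 (11.3 to 348) and of transplanted to cultured level 62.5 (17.1 to 521). Gpr82 and Gpr162 have no established ligands.

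The remaining 25 members were tested in no comparison, and their group means reached at most 0.413 TPM. Among them were the brain receptors Gpr17 and Gpr37 of the oligodendrocyte lineage, of which Gpr17 had 7 counts, all in transplanted libraries, and Gpr37 had 10 counts in resident, 14 in transplanted and none in cultured libraries. The cyclic AMP-raising receptors Gpr3 and Gpr6, the class C receptors Gpr158 and Gpr179, and Gpr75, Gpr83 and Gpr173 were also in this group. With no filter on low counts, edgeR called 4 of 22 of these members higher in transplanted than in cultured cells, against 29% of all genes. They were Gpr37, Gpr52 (a striatal receptor), Gpr179 and Gpr182 (a scavenging chemokine receptor of endothelium). It also called 1 of 23, Gpr182, lower in cultured than in resident cells, against 30% of all genes. These calls rest on few counts. Gpr179 had 1 count in cultured and 20 in transplanted libraries (ratio of transplanted to cultured level 14.6, 95% interval 2.34 to 606 from counting error only), and the other 3 had none in cultured and 9 to 14 in transplanted libraries. In all, 32 to 36 of the 57 members had a count in a cultured library, 39 to 43 in a resident and 37 to 45 in a transplanted library. Of the 56 members found in the GENCODE annotation of the same build, 21 share exon bases with another gene and 9 lie wholly inside another protein-coding gene, so without strand some of their counts are uncertain.

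**Figure D5:**
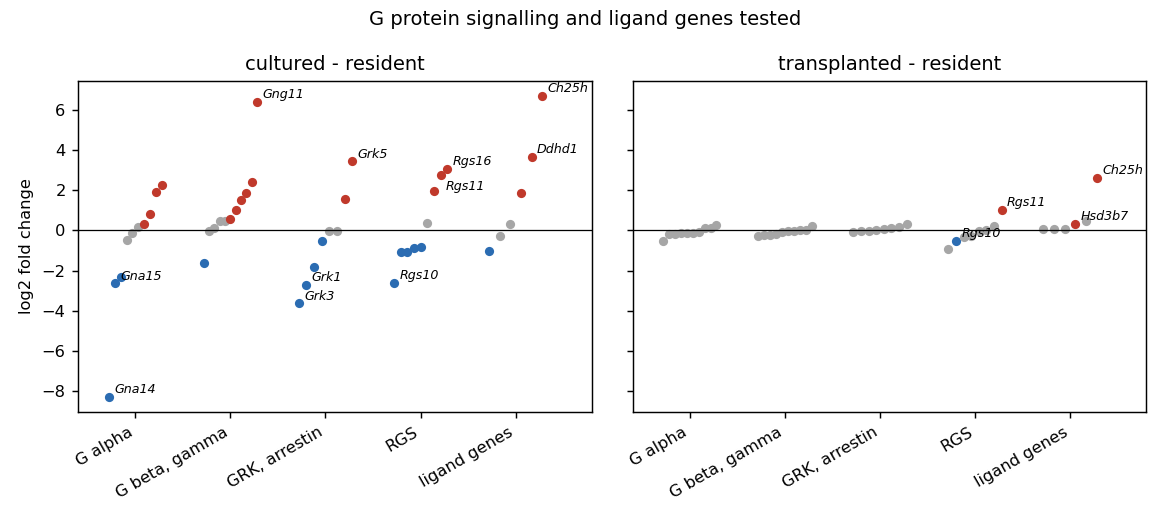
Log2 fold changes of G protein subunit, receptor kinase and arrestin, RGS and ligand genes tested, in cultured against resident (left) and transplanted against resident cells (right), with a point per gene (red called higher, blue called lower, grey not called) and names for the called genes farthest from 0 on the left and all called genes on the right. Most genes are coloured on the left, and 4 are coloured on the right.

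The genes through which these receptors signal were compared in the same way. In cultured against resident cells 4 of 10 alpha subunit genes tested were called higher and 3 lower, which is 70% against 75.1% of all genes. Gnas, the stimulatory alpha subunit, was at 261 ± 104 CPM in cultured and 55.5 ± 3.53 CPM in resident cells (log2 fold change 2.27 ± 0.22, adjusted p = 1.45e-05). Cultured replicate 2 was at 381 CPM against 190 and 212 CPM in replicates 1 and 3, and without it the log2 fold change of Gnas was 1.86. Gna15 and Gna11, of the family that activates phospholipase C, fell by 2.63 and by 2.29 on the log2 scale. Gna14 of the same family had no count in cultured libraries and was at 1.82 ± 0.413 CPM in resident and 1.25 ± 0.749 CPM in transplanted cells. Of 11 beta and gamma subunit genes 6 were called higher and 1 lower (63.6%). Among them were Gng11 (6.38), Gng5 (2.39) and Gnb5 (1.85) higher and Gng10 lower (-1.64). Of 8 kinase and arrestin genes 2 were higher and 4 lower (75%), with Grk5 at 3.43, Grk3 at -3.62, Grk1 at -2.69 and Grk4 at -1.84. Of 9 RGS genes 3 were higher (Rgs16 3.07, Rgs11 2.74 and Rgs1 1.95) and 5 lower, with Rgs10 at -2.6, which is 88.9% called. Rgs1 was at 122 CPM in resident replicate 1 against 16 to 30.3 CPM in the other resident libraries, and its log2 fold change was 2.98 without that library.

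Between transplanted and resident cells, edgeR called 13% of all genes. It called none of the 10 alpha subunit, 10 beta and gamma subunit and 8 kinase and arrestin genes tested. Of these, 0, 3 and 1 were at an unadjusted p under 0.05 in edgeR, and DESeq2 called none. Of 8 RGS genes 2 were called, which is 25% against 13% of all genes. Rgs11 was higher in transplanted cells (3.98 ± 0.491 to 8.14 ± 1.53 CPM, log2 fold change 1.04 ± 0.17, adjusted p = 0.00267). Rgs10, an abundant microglial RGS gene, was lower (455 ± 27.9 to 316 ± 55.2 CPM, -0.52 ± 0.12, adjusted p = 0.0157). Markers of other cells also moved between these groups. All 5 border macrophage markers were detected in each group. All 5 were called lower in transplanted cells, with summed levels of 41.6 to 83.8 CPM in resident, 14.6 to 24.8 in transplanted and 1790 to 2510 in cultured libraries. Monocyte markers summed to 6.41 to 10.2 CPM in resident, 1.09 to 2.16 in transplanted and 33.6 to 43.3 in cultured libraries. Both sums were highest in cultured and lowest in transplanted libraries, and Gpr65 was high in both of those groups. The cultured sums came mainly from Pf4 (1350 CPM) and Mrc1 (743 CPM) of the border list and Ccr2 (39.1 CPM) of the monocyte list. Other markers went the opposite way, with Lyve1 (log2 fold change -3.07), Cd163 (-2.68) and Plac8 (-3.69) called lower in cultured than in resident cells, and Cbr2 was not called there (0.27). The part of these markers in the member results was not tested.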

How the data were processed

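RNA of 11 libraries (3 cultured, 4 resident and 4 transplanted microglia, grouped by title) was read from 1 deposited table with an expected count, a TPM and an FPKM per gene and library, per the file headers. Per the labels' protocols, 1 ng of TRIzol-extracted RNA was made into libraries by Smart-Seq; strand is not stated. The authors estimated the expected counts per gene, with no scaling to depth. The authors scaled the TPM values for length and library. The 11 FPKM columns were not used. HISAT, Bowtie2 and the build GRCm38.p6 are named, per the submitters' processing notes. Versions, the counter and filters were not given in the sources used here.

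Symbols came from RefSeq on GRCm38.p6, which matched 99.7% of identifiers; 49 had no symbol and stayed in the tests. Expected counts were rounded, and edgeR 4.0.16 (R 4.3.3) was run on each pair of groups, with TMM, filterByExpr and the quasi-likelihood test. Calls were made at 0.05 after Benjamini-Hochberg adjustment over all genes in a fit. Errors of log2 fold changes are standard errors and those of levels are SD. A group at 0 counts was set against 3 counts over the group, ratios on 1 to 3 counts have exact 95% intervals, and both cover counting error only, since there are no molecular identifiers. No 2 libraries agreed within sampling noise. The alternatives were RLE scaling, DESeq2 1.42.0, no filter, a filter at 1 CPM in every library of a group, all groups in 1 fit, limma 3.58.1 on log2(TPM + 0.1) and log2(TPM + 1) for genes at 0.5 TPM or more and on centred values, the replicate number as a block, and each library left out. The fits were tested on simulated data.

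The members and lists were chosen with earlier results of these data known. Values per library are given for members with a group mean of at least 5 TPM or called between transplanted and resident cells. Members of functional families are named, apart from some that are not reported here, and of the others at most the 4 called members with the largest fold change per comparison. Signalling genes are given as counts with up to 4 called genes named, and all ligand genes are named. Genes named outside this rule, such as low members listed by name and genes overlapping a member, were chosen after their values were seen.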

Additional observations from a re-analysis of the deposited data

Results flagged for a closer look

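Gpr180 in transplanted cells had 1 library far from the others for its group. Transplanted replicate 2 was at 50.2 CPM, while the other 3 transplanted libraries lay between 45.6 and 46 CPM. It was the only library to stand out in this way among 26 groups of 4 libraries (13 members in resident and transplanted cells), and chance marks about 1 in 20 groups. Without that library Gpr180 was no longer called between transplanted and resident cells (log2 fold change 0.21, adjusted p = 0.0512 in edgeR).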

How the results depend on the processing

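With RLE scaling the 6 counts of members called did not change, and each median moved by less than the SD between libraries. The median log2 fold change of members in cultured against resident cells (-0.48) was -0.74 with DESeq2, -1.21 without the filter, -0.71 with the stricter filter, -1.6 on log2(TPM + 0.1) and -0.88 on log2(TPM + 1). In transplanted against cultured cells (1.05) it was 0.76 with DESeq2, 1.35 without the filter, 0.91 with the stricter filter, 2.03 on log2(TPM + 0.1) and 0.86 on centred TPM. With either pseudocount members called there numbered 23 higher and 5 lower, against 16 and 8, and in cultured against resident cells 6 higher and 21 lower, against 9 and 14. Without the filter 20 were called higher in transplanted than in cultured cells. Between transplanted and resident cells, members called higher numbered 2, against 4, with all groups in 1 fit and on centred TPM. With each library left out, cultured against resident cells gave medians of -0.68 to -0.34, and transplanted against resident cells gave 2 to 4 members higher and 1 to 2 lower. Among named members, directions of values called in either fit reversed on log2(TPM + 0.1) and log2(TPM + 1) and under no other setting: for cultured against resident cells to -1.04 and -1.03 (Gpr108), -0.57 and -0.56 (Gpr137b), and -0.91 and -0.88 (Gpr180), and for transplanted against cultured cells to 0.47 and 0.46 (Gpr137b) and 0.73 and 0.71 (Gpr65). On log2(TPM + 0.1) 21% of all calls in cultured against resident cells were higher, against 50.5% by counts, and in transplanted against cultured cells 80.2% against 51%. In transplanted against resident cells centring gave 44.3% against 55%. Of 1178 values of named members under other settings, 1088 kept direction and side of the threshold, 22 lost a call, 31 gained one and 10 reversed in this way. Another 27, called in neither fit, changed sign, such as Gpr180 in cultured against resident cells (0.14, and -0.12 without cultured replicate 3). The cause was not tested.

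Same-numbered libraries did not deviate together (correlations -0.0582 to 0.128, and not every library was closest to its own number), so numbers were not taken as pairs. With the replicate block, the median of cultured against resident cells was -0.82, and members called higher in transplanted than in resident cells numbered 2. Depth limits the 25 untested members most, since 3 counts are 0.136 to 0.146 CPM in a library.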

Other observations

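A pair of low members had uneven counts within a group. Gpr3, which raises cyclic AMP without an added ligand, had 46 counts in cultured replicate 2 and 2 and 3 in the other cultured libraries, and 15 counts in resident replicate 1, against 1 to 4 in the other resident libraries. Gpr31b, a receptor for a hydroxylated fatty acid, was at 0.774, 0.0961, 1.68 and 1.65 CPM in transplanted and 0.543, 0.28, 0.143 and 0.229 CPM in resident libraries (log2 fold change 1.79 ± 0.69, adjusted p = 0.122 in edgeR). In cultured libraries it was at 0.239, 0 and 0.0975 CPM, overlapping the lowest transplanted library, and it was called higher in transplanted than in cultured cells (8.82-fold, log2 fold change 3.14 ± 1.03, adjusted p = 0.0192 in edgeR). Gpr31b was named after its values were seen.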
